A study of Mus musculus with 8 samples.

Results

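SHP loss in leptin-null, obese mouse liver was measured as the difference between the 2 OB-/-/SHP-/- arrays and the 2 OB-/- arrays, 4 of the 8 Affymetrix arrays of the study. The members of the comparison are all probe sets of the array except the 64 control ones, which left 22626 of 22690. Of these, 20380 named a single gene, and the brightest probe set of each gene gave 12393 genes. The OB-/- mice carried a knockout of leptin, and the OB-/-/SHP-/- mice a knockout of both leptin and SHP. The groups with leptin were wild-type mice and SHP-/- mice, with 2 arrays each. They are used here for levels and for testing whether SHP loss acted differently with and without leptin. They also enter the choice of probe set and the estimate of spread behind every standard error and p-value. All 8 samples were liver RNA of mice on a C57BL background that were fed a standard rodent chow. The labels used here give no age, no sex and no number of mice behind an array. Both groups compared lack leptin, so every difference below is one between obese livers with and without SHP.

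SHP (small heterodimer partner, gene Nr0b2) is an orphan nuclear receptor that has a ligand-binding fold but no DNA-binding domain. It binds to other nuclear receptors and transcription factors and lowers their activity, and in liver it is known for the feedback by which bile acids restrain their own synthesis. Leptin is the satiety hormone of fat tissue, and mice without it overeat and store fat in the liver.

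Levels are the deposited log2 values, and a difference of 1 is a 2-fold change. A gene was called at a Benjamini-Hochberg adjusted p below 0.05 by limma over all genes, in a model of all 8 arrays. Errors are moderated standard errors (SE), and adjusted p-values are from that fit unless another setting is named. Array medians lay between 5.45 and 5.56, and across genes the replicates correlated at r = 0.995 for OB-/- and r = 0.992 for OB-/-/SHP-/-, against 0.986 to 0.989 between the 2 genotypes. The 3' probe set of Actb exceeded the 5' one by 0.76 and 0.89 in OB-/- and by 0.93 and 0.79 in OB-/-/SHP-/-, and the same offset for Gapdh ran from -0.07 to 0.10. Of 9 hepatocyte markers 0 were called by limma, 4 were higher and 0 lower at an unadjusted p below 0.05, and the median was 0.24, with Alb at 0.00 and Ahsg at 0.32. Xist, the noncoding RNA of the inactive X chromosome, read 7.41 in OB-/- replicate 1 and 4.70 in replicate 2, with 4.44 and 4.40 in OB-/-/SHP-/-, while the Y-linked genes Kdm5d, Eif2s3y and Uty were not called (adjusted p from 0.767 to 0.905). The part of Xist in the results was not tested, and results were repeated without OB-/- replicate 1.

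Nr0b2 itself read 8.01 and 8.01 in OB-/- liver, against 7.11 and 6.66 in the double knockout. Both double knockout arrays lay below both OB-/- arrays, by -1.13 ± 0.19 (adjusted p = 0.0108). This call ended when either OB-/- array, or replicate 2 of the double knockout, was left out (highest adjusted p 0.106). Nothing in the labels says that replicates came from separate mice, so all p-values rest on a spread between arrays that may be purely technical. The position of the Nr0b2 probe set relative to the deletion was not given, so the signal that remained may not test the knockout. Among the other 23 nuclear receptors and cofactors with which SHP is known to interact, 0 were called by limma, with 4 at an unadjusted p below 0.05 and Hnf4a, a receptor of hepatocyte identity, at 0.32 ± 0.14.

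Of 12393 genes, 265 were called (2.14%), 156 higher (1.26%) and 109 lower (0.88%) in OB-/-/SHP-/-. In each of the 265 the 2 arrays of one genotype lay apart from the 2 of the other, which was also so for 4696 genes that were not called. The change reached 2-fold for 74 of the genes that rose and 42 of those that fell, and the median difference over all genes was 0.01. As a background for the counts given for gene lists, 796 of the 12393 genes were higher and 655 lower at an unadjusted p below 0.05 by limma. Differences above 0 were seen for 6449 of the 12393. The interaction test, which compares the effect of SHP loss in leptin-null liver with that in liver with leptin, called 68 genes (0.549%), and 58 of the 265 were among them. It also uses the arrays with leptin, where the 3' to 5' offsets were larger, 1.89 and 1.87 for Actb in wild-type and 1.25 and 1.35 in SHP-/-, and 0.79 and 0.99 against 0.20 and 0.35 for Gapdh. The part of this difference in the interaction results was not tested. The count of 265 was 97 without OB-/- replicate 1, 80 without OB-/- replicate 2 and 162 without OB-/-/SHP-/- replicate 2, and 61 genes (42 higher, 19 lower) stayed called with any 1 of the 8 arrays left out.

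**Figure D1:**
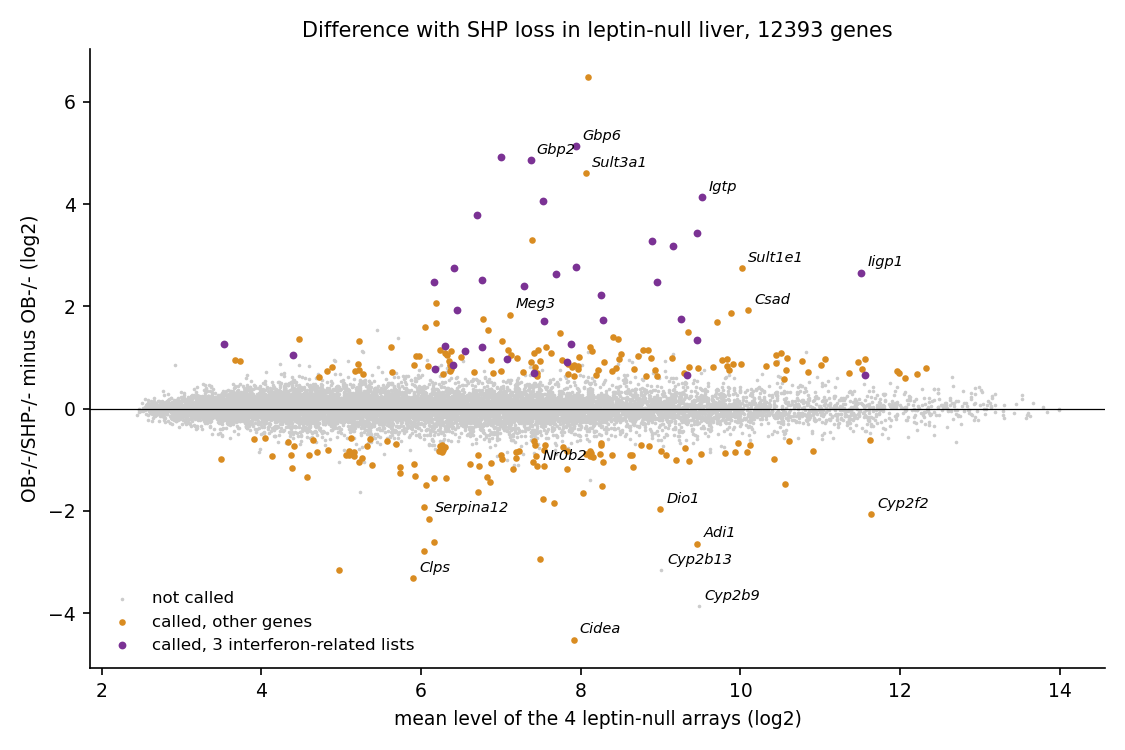
Difference between OB-/-/SHP-/- and OB-/- (log2, y axis) against the mean level of the 4 leptin-null arrays (log2, x axis), 1 point per gene for 12393 genes, with called genes coloured. The genes of 3 interferon-related lists (violet) hold most of the highest points, Cidea is the lowest called point, and Cyp2b9 and Cyp2b13 lie far below 0 without being called because their replicates disagreed.

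Many of the genes that rose furthest belong to the interferon response. Interferons are cytokines that alarm cells to infection. They act through receptors and STAT and IRF transcription factors, which bind 2 kinds of short DNA element, the interferon-stimulated response element (ISRE) and the gamma-activated site (GAS), in front of genes for antimicrobial GTPases, antigen presentation and antiviral enzymes. Hepatocytes carry the receptors and respond to interferon. In 3 lists of such genes, 80 genes were measured and 36 rose, which is 23.1% of all genes that rose, while 0 fell. They made up 7 of the 10 largest rises and 16 of the 20 largest. Of the 36, 25 stayed called with any single array left out.

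The promoters of the GTPases that rose are shown because the members moved together. Promoters shown are from the RefSeq promoter table (build GRCm38.p6, 250 bases before to 50 after the start). They cover 8 of the 11 GTPases that rose. Gbp6 and Gbp8 were not in the table. Iigp1 is not covered because promoters on its chromosome, 18, were left out of the genes shown. Both strands were searched for the ISRE core GAAANNGAAA and for the GAS core TTCNNNGAA, and matches are in capitals. In each sequence the 5' end is the far end of the promoter on the gene's own strand.

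Gbp2, chr3:142620413-142620712, plus strand: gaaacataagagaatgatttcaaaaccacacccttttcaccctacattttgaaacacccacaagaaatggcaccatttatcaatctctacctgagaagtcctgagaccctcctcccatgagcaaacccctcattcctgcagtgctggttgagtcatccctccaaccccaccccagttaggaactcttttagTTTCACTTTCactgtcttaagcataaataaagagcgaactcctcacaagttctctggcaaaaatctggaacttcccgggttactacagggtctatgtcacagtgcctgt

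Gbp7, chr3:142530086-142530385, plus strand: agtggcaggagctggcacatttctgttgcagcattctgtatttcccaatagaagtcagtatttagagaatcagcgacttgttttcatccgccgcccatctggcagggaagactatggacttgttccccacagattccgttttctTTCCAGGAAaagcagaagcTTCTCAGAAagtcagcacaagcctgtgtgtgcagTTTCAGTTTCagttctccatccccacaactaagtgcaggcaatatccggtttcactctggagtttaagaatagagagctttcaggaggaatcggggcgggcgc

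Gbp3, first start, chr3:142559794-142560093, plus strand: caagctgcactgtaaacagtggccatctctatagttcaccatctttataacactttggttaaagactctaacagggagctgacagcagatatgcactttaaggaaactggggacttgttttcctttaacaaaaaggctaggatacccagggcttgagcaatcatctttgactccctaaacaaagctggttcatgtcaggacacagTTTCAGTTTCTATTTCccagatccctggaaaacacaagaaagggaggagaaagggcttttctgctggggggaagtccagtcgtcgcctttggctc

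Gbp3, second start, chr3:142560106-142560405, plus strand: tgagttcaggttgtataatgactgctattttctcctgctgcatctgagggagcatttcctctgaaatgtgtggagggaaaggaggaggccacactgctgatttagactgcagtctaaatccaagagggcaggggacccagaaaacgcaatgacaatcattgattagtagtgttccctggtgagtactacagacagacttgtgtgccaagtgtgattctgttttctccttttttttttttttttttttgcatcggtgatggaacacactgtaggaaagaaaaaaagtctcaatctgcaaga

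Gbp2b, chr3:142594597-142594896, plus strand: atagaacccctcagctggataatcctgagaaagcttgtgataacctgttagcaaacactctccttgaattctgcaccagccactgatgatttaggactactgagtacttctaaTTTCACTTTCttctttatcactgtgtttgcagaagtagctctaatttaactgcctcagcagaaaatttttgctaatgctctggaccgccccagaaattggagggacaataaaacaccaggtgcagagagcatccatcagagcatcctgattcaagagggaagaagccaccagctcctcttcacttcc

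Igtp, chr11:58199306-58199605, plus strand: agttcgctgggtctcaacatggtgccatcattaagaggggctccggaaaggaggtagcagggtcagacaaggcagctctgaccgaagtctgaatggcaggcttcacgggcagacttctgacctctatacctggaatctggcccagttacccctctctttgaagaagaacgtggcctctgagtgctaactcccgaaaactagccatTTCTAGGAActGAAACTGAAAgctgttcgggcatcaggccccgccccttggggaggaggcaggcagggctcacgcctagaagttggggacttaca

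Irgm2, chr11:58214727-58215026, plus strand: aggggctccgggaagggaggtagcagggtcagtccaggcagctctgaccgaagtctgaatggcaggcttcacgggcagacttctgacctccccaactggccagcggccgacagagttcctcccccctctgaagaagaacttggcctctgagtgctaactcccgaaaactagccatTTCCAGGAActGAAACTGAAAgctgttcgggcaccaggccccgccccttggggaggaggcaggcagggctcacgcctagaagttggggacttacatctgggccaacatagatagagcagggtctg

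Irgm1, chr11:48871371-48871670, minus strand: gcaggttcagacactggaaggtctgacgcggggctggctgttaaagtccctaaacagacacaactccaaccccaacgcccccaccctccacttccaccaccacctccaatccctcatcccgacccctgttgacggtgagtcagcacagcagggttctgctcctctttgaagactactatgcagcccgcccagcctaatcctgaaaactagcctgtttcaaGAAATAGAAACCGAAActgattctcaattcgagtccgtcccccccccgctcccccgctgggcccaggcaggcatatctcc

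Ifi47, chr11:49076337-49076636, plus strand: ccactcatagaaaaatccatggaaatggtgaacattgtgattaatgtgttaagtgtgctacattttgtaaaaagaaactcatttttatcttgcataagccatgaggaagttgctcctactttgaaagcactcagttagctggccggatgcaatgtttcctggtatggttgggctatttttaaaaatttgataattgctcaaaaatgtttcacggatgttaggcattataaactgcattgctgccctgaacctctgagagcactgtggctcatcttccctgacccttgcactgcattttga

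Irf1, first start, chr11:53769764-53770063, plus strand: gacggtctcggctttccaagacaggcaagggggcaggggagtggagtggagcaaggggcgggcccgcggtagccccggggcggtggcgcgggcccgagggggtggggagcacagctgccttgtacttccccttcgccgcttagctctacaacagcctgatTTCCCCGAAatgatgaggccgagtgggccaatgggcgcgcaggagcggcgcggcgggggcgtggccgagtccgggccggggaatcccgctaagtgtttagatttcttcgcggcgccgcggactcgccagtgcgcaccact

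An ISRE core was in 7 of the 9 promoters of these 8 GTPase genes and a GAS core in 3 of the 9. Over all 32851 promoters of the table, 3.44% held the ISRE core, 8.3% the GAS core and 0.454% both. In Igtp and Irgm2 the same arrangement recurs, a GAS core that ends 2 bases before an ISRE core. Lined up on the ISRE without gaps, these promoters had the same base at 184 of 270 positions (68.1%), with a longest shared run of 61 bases. The ISRE core began at position -59 from the start site in Gbp2, -53 in Gbp7, -34 in Igtp, -64 in Irgm2 and -137 in Gbp2b, while Ifi47 and the second promoter of Gbp3 had neither core in this window. The first promoter of Gbp3 and that of Irgm1 each held 2 overlapping ISRE matches. Irf1, the transcription factor that binds ISREs, had a GAS core at -90 in the first of its 2 promoters in the table and no ISRE core. Among genes that rose and had a promoter in the table, 24 of 125 (19.2%) held the ISRE core and 20 (16%) the GAS core. Among those that fell the counts were 3 (3.53%) and 7 (8.24%) of 85, and over all measured genes with a promoter the shares were 3.84% and 8.45%. Of the 8 class I processing genes that rose, described below, 6 had a promoter in the table. An ISRE core was in 1 of these (Erap1) and a GAS core in 1 (Psmb8). Psmb9 and Tap1 start back to back on chromosome 17, their windows overlap on opposite strands, and neither held a core. A match describes the letters of the window and does not show that a factor binds there.

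The guanylate-binding proteins (GBP) and immunity-related GTPases (IRG) gather on the vacuoles of intracellular microbes and break them open. Of 13 measured members of the list, 11 rose and 0 fell, with a median difference of 3.43 against 0.01 over all genes, and for 10 of them the interaction was called too. Gbp2 read 4.86 and 5.02 in OB-/- against 9.80 and 9.80 in OB-/-/SHP-/-, a rise of 4.86 ± 0.17 (adjusted p = 7.25e-08). Igtp read 7.54 and 7.37 against 11.55 and 11.63, a rise of 4.14 ± 0.15 (adjusted p = 7.25e-08). Gbp6 read 5.37 and 5.37 against 10.79 and 10.24. In all 3 the gap between genotypes was many times the gap between replicates, and the levels in wild-type and SHP-/- livers lay near those of OB-/-.

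Members of both families rose, and they came from several gene clusters. The genes that rose included 4 on chromosome 3 (Gbp2, Gbp2b, Gbp3, Gbp7), 2 on chromosome 5 (Gbp6, Gbp8) and 4 on chromosome 11 (Ifi47, Igtp, Irgm1, Irgm2), with Iigp1 on another. Irgm1 and Irgm2, which regulate the other IRG proteins, rose by 3.28 ± 0.17 and 3.18 ± 0.15. Iigp1, an effector IRG, read 10.18 and 10.19 against 12.81 and 12.88. Gbp8 was the weakest, at 3.03 and 2.76 against 4.63 and 3.71, near the low end of the scale, and its call was lost without either OB-/- array (highest adjusted p 0.204). The 2 members that were not called were the Mx proteins, GTPases that block viral replication, with Mx1 at 0.11 ± 0.14 and Mx2 at 0.65 ± 0.17 (adjusted p = 0.853 and 0.0949). Gbp genes of one cluster are similar in sequence, and signal shared between their probe sets was not tested.

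**Figure D2:**
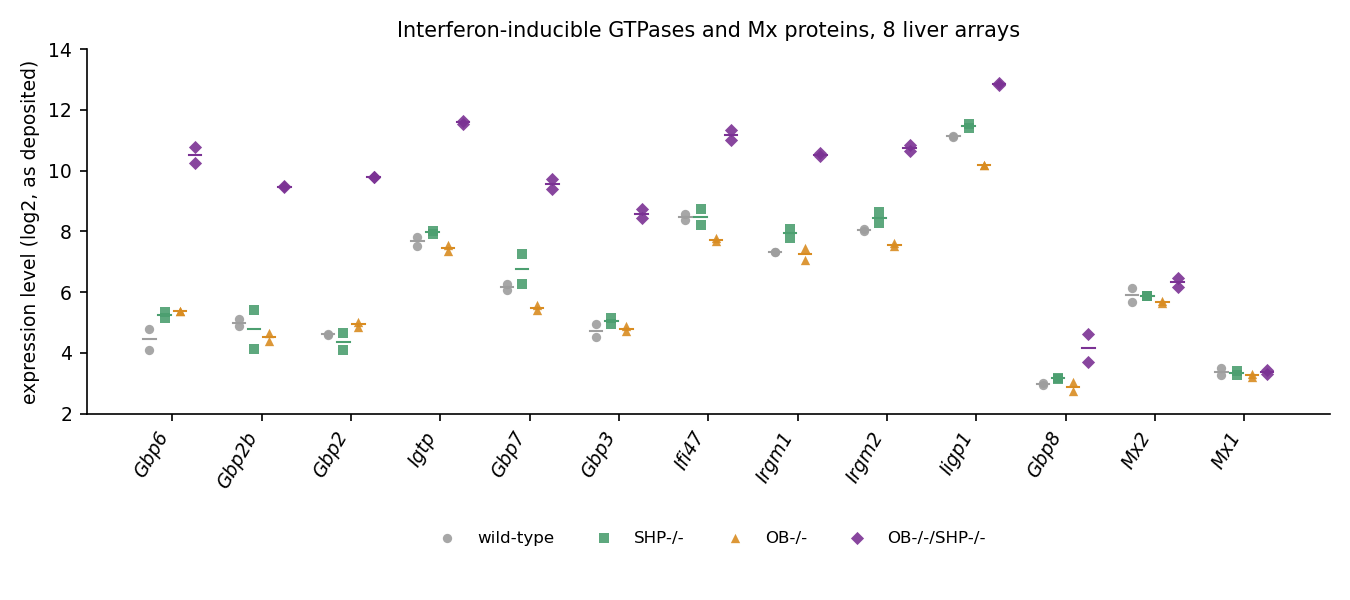
Levels of the 13 measured interferon-inducible GTPases on each of the 8 arrays (log2, y axis), with 1 symbol per array and a bar at each genotype mean. In 11 of the genes both OB-/-/SHP-/- arrays (diamonds) lie above both OB-/- arrays and were called; Mx1 and Mx2, at the right, were not called.

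Beyond the GTPases, 17 of 51 measured interferon response genes rose and 0 fell, with a median of 0.52, and for 9 of them the interaction was called as well. Those that rose ran from sensors to feedback brakes. Zbp1, a sensor of viral nucleic acid, read 4.95 and 4.88 in OB-/- against 6.88 and 7.91 in OB-/-/SHP-/-. Ifit1, which blocks translation of viral RNA, rose by 2.52 ± 0.22 and its relative Ifit3 by 1.72 ± 0.16. Usp18, which removes ISG15 and dampens the type I interferon receptor, rose by 2.40 ± 0.16, and the chaperone Rtp4 by 2.78 ± 0.16, although its dimmer probe set read 0.50. Cd274, the T cell inhibitory ligand PD-L1, read 4.88 and 5.20 against 8.19 and 7.38, a rise of 2.75 ± 0.23 (adjusted p = 3.79e-05). None of these 6 overlapped between the genotypes, which was so for all 265 called genes.

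The transcription factors of the response rose by smaller amounts. Irf1 read 7.13 and 7.69 in OB-/- against 9.34 and 8.95 in OB-/-/SHP-/-, a rise of 1.74 ± 0.20 (adjusted p = 0.000726). Irf8, which acts with Irf1 at such promoters, rose by 1.23 ± 0.13 and Irf7, the amplifier of type I interferon, by 1.27 ± 0.16. These 3 stayed called with any array left out. The poly(ADP-ribose) polymerases Parp14 and Parp9 rose by 1.93 ± 0.13 and 1.35 ± 0.15. Irf9, the DNA-binding part of the type I interferon complex, rose by 0.85 ± 0.18, and its call was lost without either OB-/- array, either wild-type array or OB-/-/SHP-/- replicate 2 (highest adjusted p 0.281), or in a fit of the 4 arrays compared alone (0.0626).

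Smaller rises were those of Trim21 (1.20), Oasl2 (1.04), the RNA editor Adar (0.78), Ifi35 (0.69) and the membrane protein Ifitm3 (0.65). Each was lost without at least 1 of the 4 arrays compared (highest adjusted p 0.0776 for Trim21, 0.0862 for Oasl2, 0.299 for Adar, 0.204 for Ifi35 and 0.189 for Ifitm3). OB-/- replicate 2 was the one that ended the call of Trim21, either OB-/- replicate 1 or OB-/-/SHP-/- replicate 2 that of Oasl2, and any of the 4 that of Adar and Ifi35. For Ifitm3 it was either OB-/- array, OB-/-/SHP-/- replicate 2 or either wild-type array, and also a fit of the 4 arrays compared alone (adjusted p = 0.0606).

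Several hallmark interferon genes were not called. The antiviral Oas1a and Rsad2 differed by -0.01 ± 0.21 and 0.46 ± 0.17, and the chemokines Cxcl10 and Cxcl9, which draw T cells, by 0.14 ± 0.17 and 0.62 ± 0.19 (adjusted p from 0.166 to 0.994 for the 4). Ifng, the cytokine itself, read 3.14 and 3.04 in OB-/- against 2.94 and 3.06 in OB-/-/SHP-/-, at the low end of the scale on every array. Its receptor chains Ifngr1 and Ifngr2 differed by 0.32 ± 0.18 and 0.03 ± 0.15 (adjusted p = 0.568 and 0.975). Further interferon-responsive genes outside the lists, named after their values were seen, were also called higher: Nmi (0.81), Pml (0.77), Parp12 (0.74), the helicase Ddx60 (0.93), the RNA sensor Tlr3 (0.73), Trafd1 (0.98) and Wars (0.70). All 7 lost the call without OB-/- replicate 2, all but Trafd1 without OB-/- replicate 1, and Nmi, Pml, Parp12, Ddx60 and Tlr3 without OB-/-/SHP-/- replicate 1 (highest adjusted p 0.283). OB-/-/SHP-/- replicate 2 also ended those of Nmi, Tlr3 and Wars, and either wild-type array those of Parp12 and Tlr3. Parp12, Tlr3 and Wars were lost under other settings too (highest adjusted p 0.321).

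In class I antigen presentation, processing genes rose and the chains B2m, H2-K1 and H2-D1 were not called. The immunoproteasome swaps 3 catalytic subunits of the standard proteasome for interferon-induced ones, and its peptides are pumped by the TAP transporter, trimmed by Erap1 and loaded onto class I chains. Of 16 measured genes 8 rose and 0 fell, with a median of 0.43 and 5 interaction calls. All 3 inducible subunits rose: Psmb9 from 7.65 and 7.79 to 10.15 and 10.23 (2.47 ± 0.14), Psmb8 by 2.23 ± 0.16 and Psmb10 by 1.75 ± 0.14. The subunits they replace were not called, with Psmb6 at -0.04 ± 0.14, Psmb5 at -0.15 ± 0.13 and Psmb7 at 0.20 ± 0.13. Whether inducible and standard subunits differed in their change was not tested as such.

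The TAP chains rose by 2.63 ± 0.15 for Tap1 and 1.13 ± 0.20 for Tap2, and 3 dimmer probe sets of Tap1 read between -0.22 and 0.36. The loading factors Tapbpl, Erap1 and Tapbp rose by 0.98, 0.91 and 0.65. The inducible subunits and Tap1 stayed called with any array left out. Tap2, Tapbpl and Tapbp were lost without either OB-/- array, Tap2 and Tapbp also without OB-/-/SHP-/- replicate 2, Tapbp also without OB-/-/SHP-/- replicate 1 or either wild-type array, and Erap1 without OB-/- replicate 2 (highest adjusted p 0.313). Tapbp was also lost in a fit of the 4 arrays compared alone (0.0598). Of the class I chains that present the peptides, B2m differed by 0.15 ± 0.14, H2-K1 by 0.07 ± 0.13 and H2-D1 by 0.06 ± 0.14. These were not called (adjusted p from 0.760 to 0.930). Probe sets that name several genes were not assigned to any chain.

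**Figure D3:**
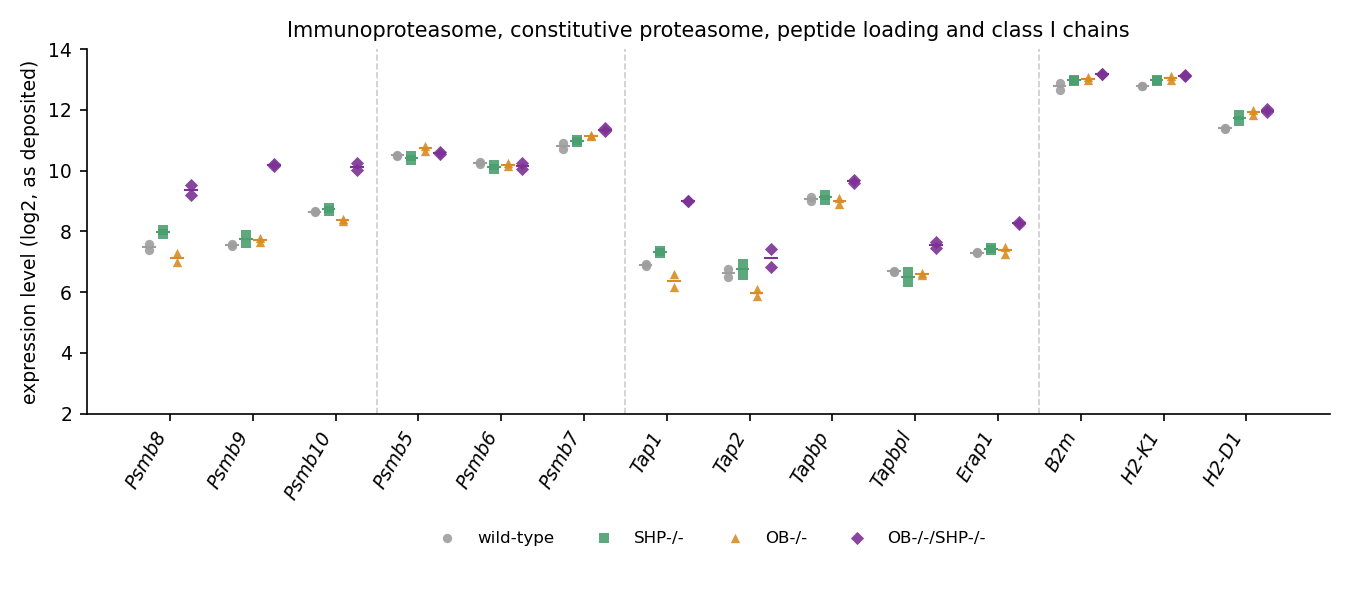
Levels (log2, y axis) on each of the 8 arrays of the inducible proteasome subunits, the standard subunits they replace, the peptide loading genes and the class I chains, in that order from left to right and parted by dashed lines, with a bar at each genotype mean. The OB-/-/SHP-/- diamonds stand clear of the other genotypes for Psmb8, Psmb9, Psmb10 and Tap1 and lie close to the OB-/- symbols for Psmb5, Psmb6, B2m, H2-K1 and H2-D1.

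Immune cell markers were set beside these rises. Of 21 T and NK cell markers limma called 0 and gave 0 an unadjusted p under 0.05, with a median of -0.03, and their summed level (log2) was 9.21 and 9.25 in OB-/- against 9.06 and 9.36 in OB-/-/SHP-/-. Of 11 B cell, 11 neutrophil and 17 endothelial markers 0 were called by limma, with 2, 1 and 1 at an unadjusted p below 0.05. The summed level of neutrophil markers was 10.36 and 10.40 in OB-/- against 11.47 and 10.89 in OB-/-/SHP-/-, with a median of 0.28, and that of B cell markers 11.38 and 11.07 against 11.70 and 11.73, with a median of -0.02. Endothelial markers summed to 11.22 and 11.30 against 11.09 and 11.05. Of 22 macrophage markers 2 rose, with a median of -0.02, and their summed level was 12.28 and 12.29 against 12.37 and 12.78. Those 2 were Mpeg1, a pore-forming protein of macrophages that interferon induces, by 1.70 ± 0.18, and the scavenger receptor Marco, by 1.60 ± 0.35. The defining Kupffer cell genes Adgre1, Clec4f and Cd68 differed by 0.02 ± 0.24, -0.11 ± 0.24 and -0.33 ± 0.26. The Marco call was lost without either OB-/- array, OB-/-/SHP-/- replicate 1 or either wild-type array (highest adjusted p 0.295), and also under quantile normalization, equal array medians, robust moderation and the mean of probe sets (up to 0.163). The part of immune cells in the interferon gene rises was not tested, and in bulk tissue fewer cells of a type and less RNA per cell cannot be told apart.

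Class II genes, which present peptides on professional antigen-presenting cells, were uneven between the double knockout arrays. H2-Aa read 8.56 and 8.69 in OB-/- against 9.31 and 10.08 in OB-/-/SHP-/-, Cd74 read 8.31 and 7.95 against 8.67 and 9.48, and neither was called (adjusted p = 0.100 and 0.116). Of 8 measured genes only the peptide editor H2-DMa was called, at 0.84 ± 0.17, and the list had a median of 0.89. Its call was lost without either OB-/- array, either wild-type array or OB-/-/SHP-/- replicate 2 (highest adjusted p 0.236). OB-/-/SHP-/- replicate 2 was the higher of the pair for both H2-Aa and Cd74, and also in the summed macrophage level.

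Among single genes outside the interferon lists, Sult3a1 rose furthest of those with a settled name. Sulfotransferases attach sulfate to hormones and drugs, and Sult3a1 and Sult1e1, the estrogen sulfotransferase, belong to the female-biased liver genes. Sult3a1 read 6.24 and 5.29 in OB-/- against 10.55 and 10.18 in OB-/-/SHP-/-, a 24.3-fold rise (4.61 ± 0.27, adjusted p = 1.76e-06). It lay between 2.91 and 3.31 on the 4 arrays of mice with leptin. Sult1e1 read 8.62 and 8.68 against 11.59 and 11.20, a rise of 2.75 ± 0.47 that was lost without either OB-/- array or OB-/-/SHP-/- replicate 1 (highest adjusted p 0.110) and with robust variance moderation (0.204). Papss1, which makes the sulfate donor, fell by 1.09 ± 0.20, and that call was lost without either OB-/- array or OB-/-/SHP-/- replicate 2 (highest adjusted p 0.164). The other 10 of 13 sulfotransferase genes were not called, among them Sult2a2 at -0.08 ± 0.25. A gene known only by its clone name, BC023105, and named after its values were seen, had a larger difference than any other gene, from 4.83 and 4.87 to 11.28 and 11.40. A further 32 probe sets that name no gene or several were called, 23 higher and 9 lower, between -4.18 and 6.61, and are not named.

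Genes of fat storage fell, but only some of them. Lipid droplets are coated by perilipins, enlarged by CIDE proteins and budded from the endoplasmic reticulum with the help of FIT proteins. Cidea, the CIDE protein of brown fat and of fatty liver, read 10.07 and 10.27 in OB-/- against 5.35 and 5.95 in OB-/-/SHP-/-, a 23-fold fall (-4.52 ± 0.20, adjusted p = 3.41e-07). In wild-type liver it read 3.73 and 3.82, below both leptin-null genotypes. Cidec read 8.85 and 8.85 against 6.57 and 7.82 (-1.65 ± 0.34), and Fitm1 10.50 and 10.52 against 9.50 and 9.83 (-0.85 ± 0.15). Fabp4, a fatty acid carrier, fell by 0.96 ± 0.16, with dimmer probe sets between -0.60 and -0.01 and a mean over probe sets that was not called (adjusted p = 0.222). Of the 4 only Cidea stayed called with any array left out. The others were lost without either OB-/- array, Cidec and Fitm1 also without OB-/-/SHP-/- replicate 1, and Fabp4 also without OB-/-/SHP-/- replicate 2 (highest adjusted p 0.219). Cidec was also lost with robust variance moderation (adjusted p = 0.120).

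These were 4 of 18 measured lipid droplet genes, of which 0 rose, and the median was -0.04. Plin2, the main perilipin of fatty liver, read 12.93 and 12.72 against 12.75 and 12.83, and Plin5 differed by 0.45 ± 0.18, the lipase Pnpla2 by 0.37 ± 0.16 and Cideb by 0.07 ± 0.14 (adjusted p from 0.335 to 0.976 for the 4). Of 10 adipocyte markers 3 fell, namely Cidea, Cidec and Fabp4, and 0 rose, with a median of -0.04. Their summed level (log2) was 13.75 and 13.67 in OB-/- against 13.44 and 13.36 in OB-/-/SHP-/-, and the part of adipocytes in the falls was not tested. The adipocyte hormone genes Adipoq and Lep differed by -0.12 ± 0.14 and 0.04 ± 0.15 and lay near the low end of the scale, from 2.79 to 3.07 and from 3.39 to 3.53. Both genotypes carried the leptin knockout, so Lep may not mark adipocytes here.

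Fat synthesis showed the same unevenness. Of 24 genes of fatty acid and triglyceride synthesis 3 fell and 0 rose, with a median of -0.11. Mogat1, which joins fatty acids to monoacylglycerol, read 8.68 and 8.50 in OB-/- against 6.30 and 7.17 in OB-/-/SHP-/- (-1.85 ± 0.25). Acly, which makes cytosolic acetyl-CoA, read 9.65 and 9.75 against 8.78 and 8.60 (-1.01 ± 0.13), although 2 dim probe sets of it read -0.24 and 0.03 and its mean over probe sets was not called (adjusted p = 0.0549). Mogat1 and Acly stayed called with any array left out. The elongase Elovl6 read 9.12 and 9.33 against 7.67 and 8.50, and its call was lost without either OB-/- array, either wild-type array or OB-/-/SHP-/- replicate 1 (highest adjusted p 0.351), and also under quantile normalization and the mean of probe sets (up to 0.346).

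The fatty acid synthase Fasn read 9.75 and 9.62 against 8.66 and 9.70, so that one double knockout array was low and the other was not, and the desaturase Scd1 differed by -0.09 ± 0.19. The transcription factors of lipogenesis were not called, with Srebf1 at -0.35 ± 0.28, Mlxipl at 0.29 ± 0.18 and Pparg at -0.51 ± 0.18 (adjusted p = 0.726, 0.601 and 0.231). Cd36, a target of PPAR gamma that carries fatty acids into the cell, read 10.92 and 11.03 against 10.83 and 10.88. The glycerol channel Aqp7 was the 1 gene of 15 called in that list (-0.62 ± 0.13), a call lost without any of the 4 arrays compared or either wild-type array (highest adjusted p 0.240), with the mean of probe sets or in a fit of those 4 arrays alone.

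The lists of fat burning, respiration and glycolysis held no called gene. Of 27 genes of fatty acid oxidation and ketogenesis 0 were called by limma, with 1 at an unadjusted p below 0.05 and a median of -0.12. Of 35 subunits of the respiratory chain and ATP synthase 0 were called by limma, with 7 at an unadjusted p below 0.05, and all 35 differences were below 0, with a median of -0.15. Under quantile normalization the median was -0.15 and 1 subunit was called, and with equal array medians it was -0.17 with 0 called. The subunits Sdhd and Cox7a2 read 11.37 and 11.26 against 10.88 and 10.58 and 12.40 and 12.35 against 11.98 and 11.67 (adjusted p = 0.0709 and 0.0920). Ndufs5 of complex I (-0.67) and the pyruvate dehydrogenase subunits Dlat (-0.87) and Pdhb (-0.71), outside the list and named after their values were seen, were called lower. All 3 were lost without either OB-/- array, Ndufs5 and Pdhb also without OB-/-/SHP-/- replicate 2, and Ndufs5 also without replicate 1 or either wild-type array (highest adjusted p 0.338). Ndufs5 was also lost in a fit of the 4 arrays alone (0.0651) and Dlat with the mean of probe sets (0.0549). Of 16 genes of glycolysis and fructose use 0 were called by limma, with 4 at an unadjusted p below 0.05 and a median of -0.26.

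Bile acid genes, the known domain of SHP, moved little. Of 17 genes of bile acid synthesis 2 rose, 0 fell and 14 differences were above 0, with a median of 0.12. The rate-limiting enzyme Cyp7a1 read 9.88 and 9.84 in OB-/- against 9.82 and 8.85 in OB-/-/SHP-/-, and Cyp8b1, which sets the share of cholic acid, differed by 0.34 ± 0.17 (adjusted p = 0.559 and 0.488). The genes that rose were Cyp39a1, an oxysterol hydroxylase, from 6.98 and 6.80 to 8.22 and 7.83 (1.14 ± 0.17), and Cyp2c70, which makes the muricholic acids of mice, from 10.64 and 10.53 to 11.48 and 11.40 (0.85 ± 0.15). Cyp39a1 was lost without OB-/- replicate 2 (adjusted p = 0.0849), and Cyp2c70 without any of the 4 arrays compared (up to 0.144).

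Among 16 transporters, 2 rose and 0 fell, with a median of 0.17. Slc22a7, an organic anion carrier, read 5.92 and 6.22 against 7.44 and 7.76 (1.53 ± 0.16) and stayed called with any array left out. Abcg5, part of the canalicular sterol pump, rose by 0.96 ± 0.17, a call lost without either OB-/- array or OB-/-/SHP-/- replicate 2 (highest adjusted p 0.129). The bile acid pumps Abcb11 and Slc10a1 differed by 0.19 ± 0.16 and 0.14 ± 0.14. In lipoprotein handling the HDL receptor Scarb1 (1.09 ± 0.16), Apom (0.83 ± 0.13) and Lrp1 (0.83 ± 0.16) rose and Pltp, a phospholipid transfer protein, fell from 10.94 and 10.90 to 9.79 and 10.08. In that list of 20 genes the median was 0.11. Scarb1 was lost without OB-/- replicate 2, Apom, Pltp and Lrp1 without either OB-/- array, and Lrp1 also without OB-/-/SHP-/- replicate 2 (highest adjusted p 0.276).

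Enzymes of taurine and methionine metabolism changed in both directions. Csad, which makes the taurine that mice join to bile acids, read 9.10 and 9.16 in OB-/- against 11.30 and 10.80 in OB-/-/SHP-/- (1.92 ± 0.18, adjusted p = 0.000128). Adi1 of the methionine salvage pathway read 10.86 and 10.70 against 8.55 and 7.73 (-2.64 ± 0.30), and its other probe sets read -4.23 and, dimmer, -0.19. Both stayed called with any array left out. The list held 23 genes, of which 3 rose and 1 fell. The transaminase Got1 rose by 0.97 ± 0.14 and Cth, which makes cysteine, by 0.74 ± 0.15. Got1 and Cth were lost without OB-/- replicate 2, and Cth also without either OB-/-/SHP-/- array, either wild-type array (highest adjusted p 0.299) or in a fit of the 4 arrays alone (0.0525).

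Enzymes that break down amino acids showed 4 rises among 36 genes and 0 falls. Besides Got1 these were Bckdhb of branched-chain breakdown (1.00 ± 0.15), the histidine lyase Hal (0.72 ± 0.16) and the tyrosine transaminase Tat (0.68 ± 0.15). Each was lost without OB-/- replicate 2, Hal and Tat also without OB-/- replicate 1, OB-/-/SHP-/- replicate 2 or either wild-type array, and Tat also without OB-/-/SHP-/- replicate 1 (highest adjusted p 0.431). Hal and Tat were also lost in a fit of the 4 arrays alone, and Tat with equal array medians or without x_at and s_at probe sets (highest adjusted p 0.0681). Asns, which makes asparagine, rose from 4.90 and 5.40 to 8.00 and 6.44, with its 2 double knockout arrays far apart. The Asns call was lost without either OB-/- array (highest adjusted p 0.172) or with robust moderation (0.137), and was the 1 call among 24 genes of the ATF4 stress response. Of 25 endoplasmic reticulum chaperones and unfolded protein response genes 0 were called by limma, and 5 had an unadjusted p below 0.05.

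Cytochrome P450 enzymes of drug metabolism that changed fell, and others were split between the double knockout arrays. Of 27 cytochrome P450 genes of families 1, 2 and 3, 3 fell and 0 rose, with a median of 0.02. Cyp2f2, an enzyme of periportal hepatocytes, read 12.71 and 12.63 in OB-/- against 10.78 and 10.43 in OB-/-/SHP-/- (-2.07 ± 0.16). Cyp2b10, the classical target of the xenobiotic receptor CAR, read 8.33 and 8.50 against 6.40 and 6.87 (-1.77 ± 0.18), and Cyp2c55 fell by 1.10 ± 0.17. Only Cyp2c55 lost its call with an array left out, OB-/- replicate 1 (adjusted p = 0.0882).

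The female-biased Cyp2b9 read 11.44 and 11.37 in OB-/- but 4.34 and 10.74 in OB-/-/SHP-/-, and its neighbour in sequence Cyp2b13 read 10.61 and 10.56 against 4.55 and 10.31. OB-/-/SHP-/- replicate 1 lacked most of the signal and replicate 2 kept it, so neither was called (adjusted p = 0.261 and 0.313). Cyp2c39 split the same way, at 8.22 and 10.57. Of all 12393 genes, 54 differed by more than 1 between the double knockout replicates and 4 by more than 2, against 7 and 1 between the OB-/- replicates. Of antioxidant and conjugating genes, Cbr3, a carbonyl reductase, fell from 6.82 and 7.16 to 5.11 and 5.03 (-1.92 ± 0.15) and stayed called with any array left out. Mgst3 and Ephx1 fell by 0.82 ± 0.16 and 0.61 ± 0.14, and both were lost without any of the 4 arrays compared, Ephx1 also without any of the other 4 (highest adjusted p 0.284). Mgst3 was also lost with the mean of probe sets (0.0805) and Ephx1 in a fit of the 4 arrays alone (0.0713).

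**Figure D4:**
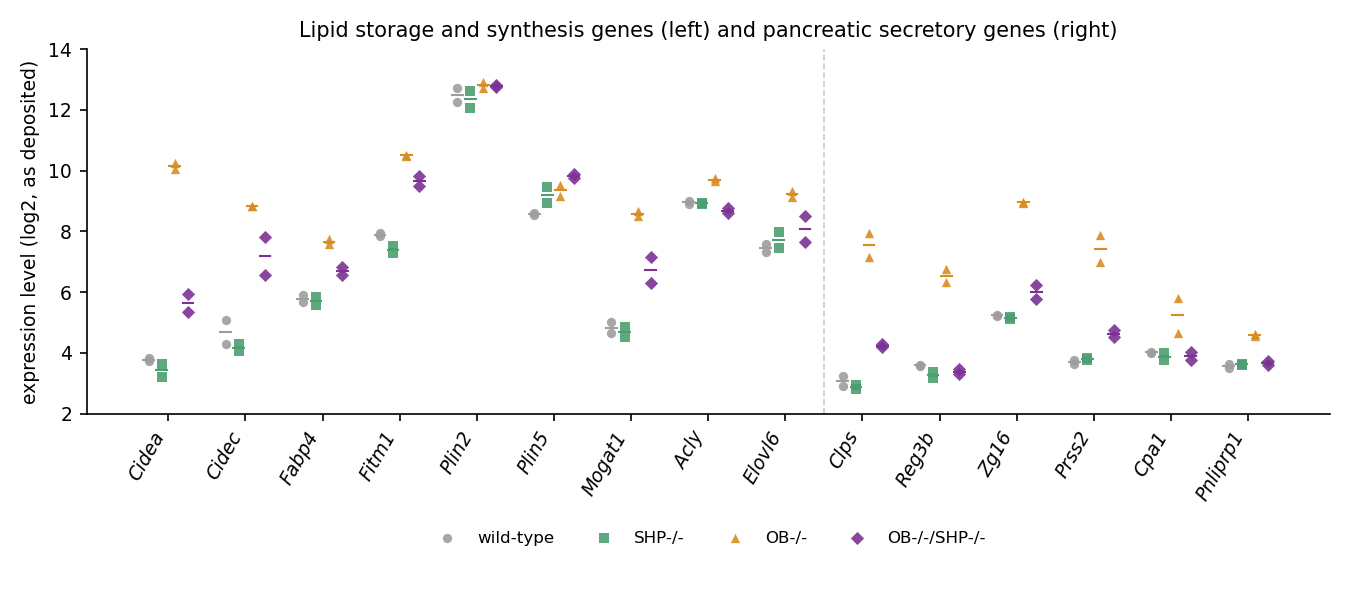
Levels (log2, y axis) on each of the 8 arrays of genes of lipid storage and synthesis (left of the dashed line) and of pancreatic secretory genes (right), with a bar at each genotype mean. OB-/- triangles lie above OB-/-/SHP-/- diamonds for Cidea, Mogat1, Acly and the pancreatic genes, while Plin2 is close in both leptin-null genotypes and Plin5 lies above its OB-/- values in OB-/-/SHP-/-.

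Genes of the exocrine pancreas formed the other group that fell. Of 31 measured acinar and islet markers 6 fell and 0 rose, with 14 falling and 0 rising at an unadjusted p below 0.05 and a median of -0.31. Colipase Clps read 7.95 and 7.15 in OB-/- against 4.28 and 4.20 in OB-/-/SHP-/- (-3.31 ± 0.22). The lectin Reg3b read 6.33 and 6.75 against 3.48 and 3.30 (-3.15 ± 0.16), and Zg16, a protein of zymogen granules, 8.96 and 8.95 against 5.79 and 6.25 (-2.94 ± 0.16). The trypsinogen Prss2 fell by 2.79 ± 0.23, the lipase homologue Pnliprp1 by 0.93 ± 0.13 and the carboxypeptidase Cpa1 by 1.34 ± 0.28. Cpa1 read 5.81 and 4.67 in OB-/-, and its call was lost without OB-/- replicate 1, either OB-/-/SHP-/- array or either wild-type array (highest adjusted p 0.191), and under 4 other settings (up to 0.0593).

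The summed level of the list (log2) was 11.10 and 10.80 in OB-/-, 9.82 and 9.97 in OB-/-/SHP-/-, 9.91 and 9.90 in wild-type and 9.80 and 9.87 in SHP-/-, so the OB-/- arrays stood above all others. The islet hormone genes Ins2, Gcg and Sst differed by -0.06 ± 0.14, -0.21 ± 0.16 and 0.02 ± 0.13. The other probe sets of these genes were dimmer in OB-/- and smaller in difference, at -0.40 for Clps, 0.02 for Reg3b, 0.16 and -0.80 for Zg16 and from -1.31 to -0.01 for Prss2. With x_at and s_at probe sets left out, Zg16 and Prss2 were not called (adjusted p = 0.844 and 0.994). Whether these genes reached the arrays from pancreas in the OB-/- samples was not tested.

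Matrix genes fell in small number. Of 30 stellate cell, collagen and matrix genes 3 fell, 0 rose and 5 differences were above 0, with a median of -0.15. The lectin Lgals1 read 11.17 and 11.42 in OB-/- against 9.84 and 9.79 in OB-/-/SHP-/- (-1.48 ± 0.28). Collagen Col3a1 read 7.75 and 7.74 against 6.23 and 6.89, and Col4a1 of basement membranes 7.60 and 7.67 against 6.79 and 6.83. Each was lost without either OB-/- array, Lgals1 and Col3a1 also without OB-/-/SHP-/- replicate 1 and Lgals1 also without replicate 2 (highest adjusted p 0.204).

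Secreted liver proteins rose in small number. Of 22 acute phase genes 3 rose and 0 fell, with a median of 0.35: Serpina3n (0.90 ± 0.18), Itih3 (0.80 ± 0.14) and Fgl1 (0.77 ± 0.16). The serum amyloids Saa1 and Saa2 differed by -0.75 ± 0.60 and -0.62 ± 0.72. Of 35 complement and coagulation genes 2 rose, 0 fell and 26 differences were above 0, with 12 rising at an unadjusted p below 0.05 and a median of 0.20. C8b of the membrane attack complex read 8.04 and 7.90 in OB-/- against 8.93 and 9.15 in OB-/-/SHP-/- (1.07 ± 0.14) and stayed called with any array left out. Coagulation factor F11 rose by 0.72 ± 0.16. The calls of Serpina3n, Fgl1 and F11 were lost without any of the 4 arrays compared, Serpina3n and F11 also without either wild-type array, and that of Itih3 without either OB-/- array or OB-/-/SHP-/- replicate 2 (highest adjusted p 0.348). F11 was also lost with equal array medians (0.0517).

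**Figure D5:**
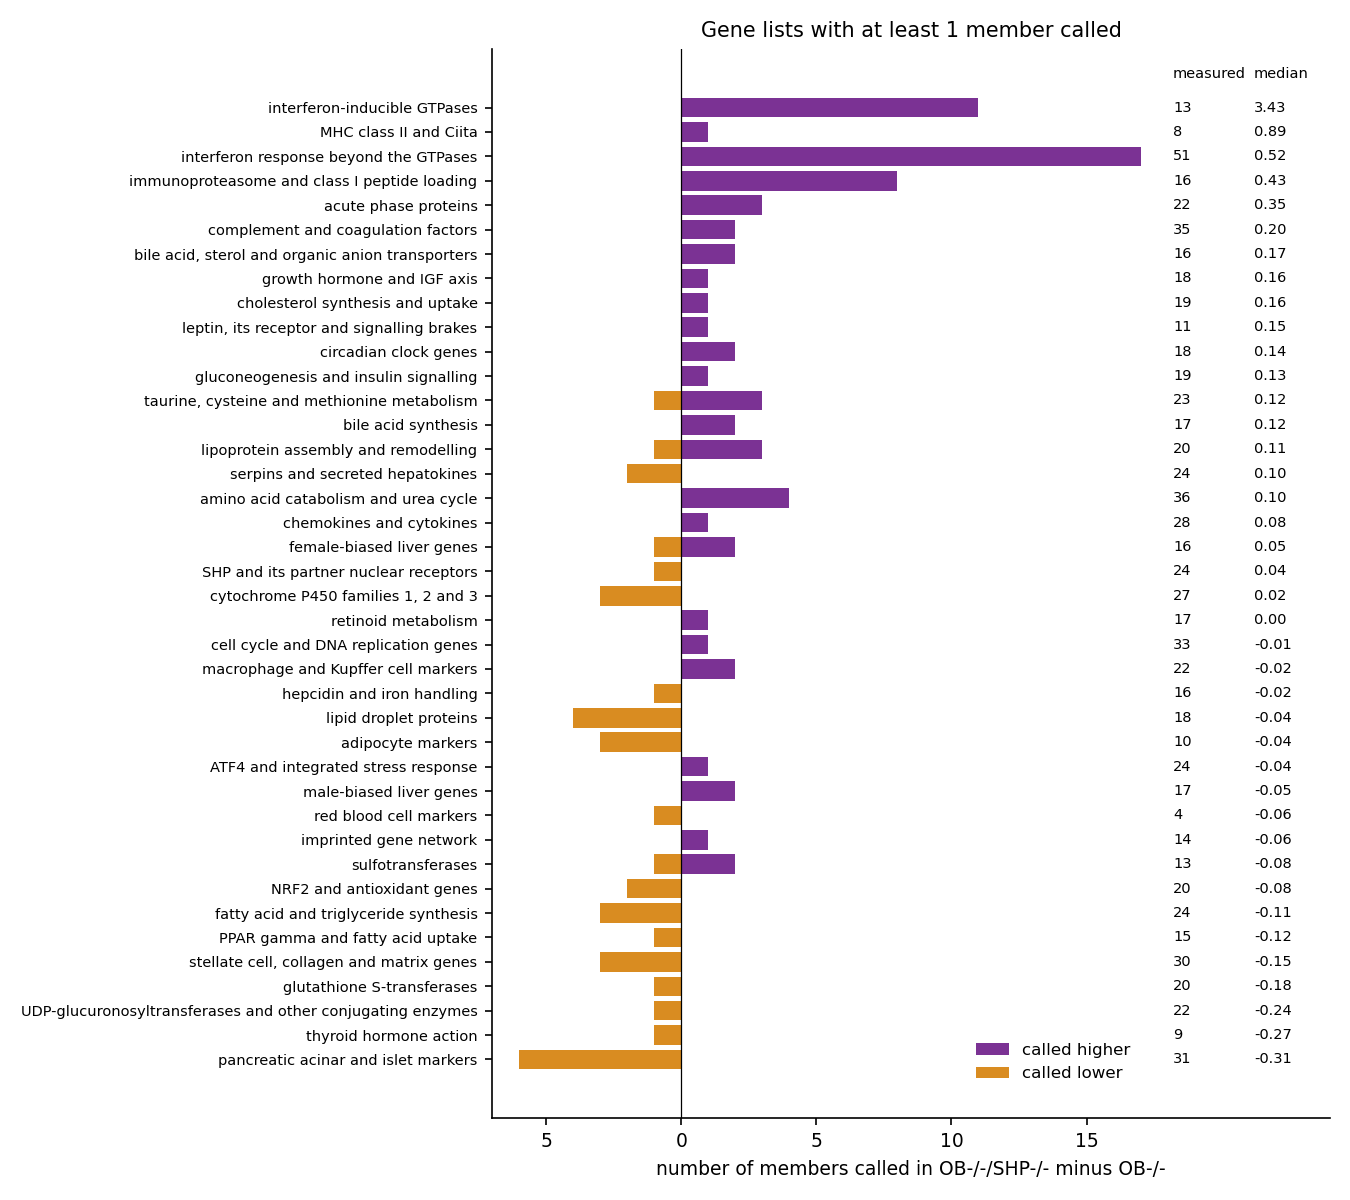
Number of members called higher (violet, right) and lower (orange, left) in OB-/-/SHP-/- minus OB-/- for each gene list with at least 1 call, with the number of genes measured and the median difference (log2) at the right. Lists are ordered by median, from 3.43 for the GTPases to -0.31 for the pancreatic markers.

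Hormone, clock and signalling genes changed one at a time. Serpina12, which encodes vaspin, read 7.03 and 7.31 in OB-/- against 5.09 and 4.95 in OB-/-/SHP-/- (-2.15 ± 0.16), and Meg3, an imprinted noncoding RNA, 6.05 and 6.32 against 8.09 and 7.97 (1.84 ± 0.14). Dimmer probe sets read -0.04 for Serpina12 and 0.16 for Meg3, and both genes stayed called with any array left out. Serpinb1a, an inhibitor of neutrophil proteases, fell by 1.06, a call lost without any of the 4 arrays compared (highest adjusted p 0.236). Dio1, which activates thyroid hormone, read 9.81 and 10.14 against 8.60 and 7.41, a call lost without OB-/- replicate 2 (adjusted p = 0.0857). The insulin signalling adaptor Irs2 rose from 5.80 and 5.79 to 6.99 and 6.70, Stat3, which relays leptin and interleukin signals, from 9.11 and 8.78 to 9.85 and 9.66, and the clock gene Per2 from 5.29 and 5.26 to 5.92 and 6.05. Each of these 3 was lost without OB-/- replicate 2, Irs2 and Per2 also without OB-/- replicate 1, Irs2 and Stat3 also without OB-/-/SHP-/- replicate 1, and Stat3 and Per2 also without OB-/-/SHP-/- replicate 2 (highest adjusted p 0.259). Per2 was also lost with the mean of its probe sets (0.465).

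Other single genes of the largest changes are given with their levels. Sdc4, a heparan sulfate proteoglycan, rose from 9.10 and 8.81 to 11.11 and 10.53, with a further probe set at -0.09. Ctse, a lysosomal protease, rose from 5.45 and 6.03 to 8.20 and 9.88, while its other probe set read -0.77, and its call was lost with robust variance moderation or the mean of probe sets (highest adjusted p 0.103). Among falls, the neprilysin gene Mme went from 7.17 and 6.45 to 5.21 and 5.41, Wfdc2 from 9.01 and 9.03 to 7.44 and 7.57, the succinate receptor Sucnr1 from 7.57 and 7.59 to 6.10 and 6.19 and the cholesterol 24-hydroxylase Cyp46a1 from 6.29 and 6.46 to 4.91 and 5.31. The groups did not overlap in any of these 6, as in every called gene, and their calls were kept with any array left out. Other large falls were those of the transcription factor Olig1, from 7.37 and 7.55 to 4.60 and 5.10, and of the carotenoid-cleaving Bco2 (-1.64), Slc22a29 (-1.35), the laminin chain Lamb3 (-1.35), the sulfatide enzyme Gal3st1 (-1.34) and Nrep (-1.32). Olig1 and Bco2 were lost without OB-/- replicate 2, Lamb3 without OB-/- replicate 1, and Slc22a29, Gal3st1 and Nrep without either (highest adjusted p 0.201). OB-/-/SHP-/- replicate 1 also ended the calls of Bco2, Gal3st1 and Nrep, and replicate 2 that of Slc22a29. Named after their values were seen, the kinase Plk3 (1.76), Gdpd3 (1.67), the noncoding RNA Malat1 (1.40) and the ribonuclease gene Rnase4 (0.91) were called higher, and carbonic anhydrase Car2 (-1.18) and Gas6 (-1.13) lower. Gdpd3 was lost without either OB-/- array or OB-/-/SHP-/- replicate 2, Malat1 without OB-/- replicate 1 and Rnase4 without OB-/- replicate 2 (highest adjusted p 0.128). A dim probe set of Malat1 read 0.29.

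A knockout can carry flanking DNA of the strain in which it was made, so the genes around the altered loci were counted by their order along the chromosome. Of the 100 measured genes nearest to Nr0b2 on chromosome 4, 50 on each side, 4 were called (4%), 3 higher and 1 lower. They were Rcc1, Extl1, Rsrp1 and Paqr7, named after their values were seen. Among them Rsrp1 stayed called with any array left out, while Rcc1 and Extl1 were lost without either OB-/- array and Paqr7 without OB-/- replicate 2. OB-/-/SHP-/- replicate 1 or either wild-type array also ended the call of Rcc1, and OB-/-/SHP-/- replicate 2 that of Extl1 (highest adjusted p 0.277). Around Lep on chromosome 6, 5 of 100 were called. Both groups compared carried the leptin knockout, so the altered Lep locus itself does not set them apart. Over all genes 2.14% were called, and over chromosome 4 as a whole 25 of 739 (3.38%).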

How the data were processed

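Liver RNA was labelled with biotin and hybridised to Affymetrix expression arrays, per the labels' protocols. The values were deposited by the authors as log2 signals, already normalized. The log base was read from their range (2.2 to 14.19), while the sources used here do not give the normalization or background correction. R 2.15.0 is named in the submitters' processing notes. Nothing was rescaled. Probe sets were named through the platform annotation given with the data: 691 of 22626 had several genes and 1555 none. For the 4956 genes with more than 1 probe set, the one with the highest mean over all 8 arrays was used.

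One mean per genotype was fitted with limma 3.58.1 (R 4.3.3; lmFit and eBayes, no trend, not robust), with 4 residual and 7.16 prior degrees of freedom, and p-values were adjusted by Benjamini-Hochberg over 12393 genes. The interaction was the difference in OB-/- background minus that in liver with leptin. The number of arrays limits the precision: the median SE was 0.15. On simulated data for this comparison (12393 genes), 91% of genes changed by 1.5 and 100% of those changed by 3 (log2) were recovered. There were 0 of the wrong sign and 11 false calls. The simulated noise was independent and had the spread seen between these arrays. It therefore does not measure the recovery of smaller changes or the error that differences between mice would add. Alternatives were quantile normalization, equal array medians, a filter at 4.83, trend and robust moderation, the mean of probe sets, every probe set, no x_at or s_at probe sets, the 4 compared arrays alone, the replicate number as a block, and each array left out.

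Named genes were Nr0b2, Lep, the called members of the gene lists, up to 3 members of a list with none called, a few key regulators and the 25 largest called changes in each direction among genes that reach the median level and have no clone name; others, and list members that were not called but are named beside called ones for their known role, were chosen after their values were seen. The members and lists were chosen with earlier results of these data known. A summed level is log2 of the sum of a list's unlogged values.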

Additional observations from a re-analysis of the deposited data

Results flagged for a closer look

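For 45 of the genes named above, SHP loss had a different effect in leptin-null liver from that in liver with leptin, by limma's interaction term (adjusted p from 3.8e-06 to 0.0431), 29 with a more positive and 16 with a more negative effect in leptin-null liver. Over all 12393 genes the interaction called 68 (0.549%). The 45 were named for calls in leptin-null liver, which is 1 part of the interaction, so they were not picked independently of it. Values below are that interaction (log2, the difference in OB-/- background minus the difference in liver with leptin).

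Among the GTPases it was 5.15 for Gbp2b, 5.10 for Gbp2, 4.35 for Gbp6, 3.84 for Igtp, 3.48 for Gbp7, 3.47 for Gbp3, 3.44 for Ifi47, 2.77 for Irgm2, 2.66 for Irgm1 and 2.32 for Iigp1. Among other interferon genes it was 2.58 for Cd274, 2.32 for Rtp4, 2.05 for Ifit1, 1.95 for Parp14, 1.87 for Irf1, 1.61 for Usp18, 1.46 for Ifit3, 1.28 for Parp9 and 1.16 for Irf8. In class I processing it was 2.25 for Psmb9, 2.20 for Tap1, 1.73 for Psmb8, 1.68 for Psmb10 and 1.15 for Tapbpl. Further positive values were 4.69 for Ctse, 4.51 for Sult3a1, 1.68 for Sdc4, 1.66 for Irs2 and 1.19 for Got1.

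Among the negative values, the pancreatic genes had -3.13 for Clps, -2.90 for Prss2, -2.86 for Zg16, -2.84 for Reg3b and -0.99 for Pnliprp1. Metabolic genes had -4.17 for Cidea, -3.36 for Adi1, -1.87 for Pltp, -1.78 for Cbr3, -1.60 for Cyp2b10 and -1.36 for Cyp2f2. The remaining values were -1.93 for Mme, -1.91 for Wfdc2, -1.76 for Serpinb1a, -1.51 for Col4a1 and -1.26 for Sucnr1. In wild-type liver Cidea read near the low end of the scale, and the list of pancreatic markers had a mean level of 4.33 and 4.32. A fall with SHP loss had little room to show at such levels. Whether the interaction of these genes goes beyond this limit was not tested.

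Other called genes did not pass this test, with an interaction of -0.06 for Csad, -0.04 for Mpeg1, -0.13 for Serpina12, -0.04 for Dio1 and 0.38 for Meg3 (adjusted p from 0.678 to 0.990). A p that misses the threshold does not show that the effects were alike.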

How the results depend on the processing

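Of the 115 called genes that the naming rule gives, 50 kept the call with any 1 of the 8 arrays left out. The call was lost under none of the other alternatives that test genes for 89, and under none of either kind for 46. A gene that a setting did not test counts as kept there, as for Clps, Reg3b and Pnliprp1, which were tested in 16 of 17 settings. The count of 265 called genes ran from 80 to 298 with 1 array left out, was 237 to 316 under the other alternatives that test genes, and 320 probe sets were called when every probe set was tested. The interaction count of 68 ran from 32 to 113 with 1 array left out and was 120 over every probe set. Zg16 turned to 0.16 without x_at and s_at probe sets, since another probe set then stood for the gene. Correlations of same-numbered deviations ran from -0.107 to 0.196 over the genotype pairs, with 0.132 for OB-/- and OB-/-/SHP-/-. Whether a replicate number marks a shared batch was not tested beyond a fit with it as a block. With the replicate number as a block, 275 genes were called, 250 of them among the 265, and the interaction count was 77; Hal, Ephx1 and Tlr3 were not called there. No list's median changed sign under quantile normalization or equal array medians. With 2 arrays a genotype, and with OB-/- replicates close together, calls rest on few degrees of freedom, and dim probe sets have little room to show a fall.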

Other observations

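Further called genes in the lists are given as values. Of 18 genes of the growth hormone and IGF axis the repressor Bcl6 rose by 1.02, and of 17 male-biased liver genes Bcl6 and Cyp4a12a (0.98) rose, while of 16 female-biased genes Sult3a1 and Sult1e1 rose and Cyp2b10 fell. Of 18 clock genes Per2 and Noct (1.20) rose, and of 20 immediate-early genes 0 were called by limma, with 0 at an unadjusted p below 0.05. The cholesterol synthesis gene Cyp51 rose by 0.96, with a dimmer probe set at -0.12, and was the 1 call among 19 genes. The transferrin receptor Tfrc fell by 0.88, Alas2 of heme synthesis by 0.90, and the retinol dehydrogenase Rdh9 rose by 0.98. Of 28 chemokine and cytokine genes Il18bp, a decoy receptor for interleukin 18 that interferon induces, rose by 0.91. Gadd45b, a stress-induced growth arrest gene, rose by 1.03 and was the 1 call among 33 cell cycle genes. All 9 of Bcl6, Cyp4a12a, Noct, Cyp51, Tfrc, Alas2, Rdh9, Il18bp and Gadd45b lost the call without OB-/- replicate 2 (highest adjusted p with 1 array left out 0.365). OB-/- replicate 1 ended it for all but Cyp4a12a and Rdh9, OB-/-/SHP-/- replicate 1 for Bcl6, Noct, Cyp4a12a and Rdh9, and OB-/-/SHP-/- replicate 2 for Bcl6, Noct, Cyp51, Tfrc, Alas2 and Il18bp. Either wild-type array ended it for Noct and Tfrc. With the mean of probe sets Bcl6, Cyp51, Tfrc and Noct were not called (highest adjusted p 0.387), and Noct was also lost under quantile normalization.

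Of the 265 called genes, 103 were in one of the lists and 162 in none. Immune receptors and membrane proteins called higher outside the lists, named after their values were seen, were Tnfrsf14 (1.33), Plac8 (1.14), Tnfrsf1b (1.05), Fcgr4 (0.96) and Cd47 (0.76). All 5 were lost without OB-/- replicate 1, Plac8, Fcgr4 and Cd47 also without OB-/- replicate 2, Plac8, Tnfrsf1b, Fcgr4 and Cd47 also without OB-/-/SHP-/- replicate 2, and Plac8 and Cd47 also without replicate 1 (highest adjusted p 0.175). Tnfrsf1b and Cd47 were also lost with the mean of probe sets (0.0549 and 0.0667).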
